A study of Mus musculus with 20 samples.

Results

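Genes for chemokines, interleukins, the TNF and TGF-beta families and their receptors were examined in the livers of 20 mice. They were chosen by a rule on gene names, which was set with earlier results of these data known. Every probe was taken whose only gene symbol in the platform annotation began with Ccl, Ccr, Cxcl, Cxcr, Tnf or Tgfb, or with Il and a digit, except Cxcl9, Cxcl10 and Il2rb. This gave 149 of 152 matching genes, on 158 of the 23574 probes of the array, and probes of the same gene were averaged. The arrays gave 21556 features in all, of which 11647 were named genes. By role the members comprised 20 CC chemokine ligands, 9 CXC chemokine ligands, 15 chemokine receptors, 31 interleukins, 34 interleukin receptor chains and 4 interleukin antagonists, binding proteins or induced enzymes. A further 8 were ligands and 17 receptors of the TNF superfamily, 4 were TNF-induced proteins and 7 belonged to the TGF-beta system.

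The mice were C57BL/6J animals of the FCG (core genotypes) model. Their Y chromosome has lost the testis-determining gene Sry, and Sry is supplied instead by an autosomal transgene. The gonadal males were XX.Sry (called XXM) and XY-Sry (XYM), and the gonadal females were XX (XXF) and XY- (XYF), with 5 animals in each group. All of them ate chow with 4% fat and lost their gonads by surgery at 8 weeks, and livers were taken at 12 weeks of age following 12 h without food. Liver RNA of each animal was labelled with Cy5 and hybridised against a common Cy3-labelled pool of liver RNA, which the sample labels describe as 17 livers and the design text as equal shares of every sample. Gonadal males carried the Sry transgene and had testes until 8 weeks, and gonadal females had ovaries until then. The transgene itself, earlier testicular hormones and earlier ovarian hormones therefore cannot be told apart. The promoter of the transgene was not given in the sources used here. Values are log2 ratios of a liver to the pool. They compare animals and hold no level of a gene, so whether a marker or a cytokine was near absence could not be read from them. Whole liver was measured, so fewer cells of a type and less RNA per cell cannot be told apart.

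Chemokines are small secreted proteins that guide leukocytes by binding G protein-coupled receptors on their surface. Interleukins act mostly through receptor chains that activate JAK kinases and STAT factors, the TNF superfamily through adaptors that lead to NF-kB, and TGF-beta through Smad proteins. In liver these signals pass between hepatocytes, endothelium, the resident macrophages known as Kupffer cells, and the T, NK and B lymphocytes of the sinusoids.

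Some arrays stood apart and touch the results on all members. Over all features, log2 ratios spread most widely in 4 gonadal females, with SDs of 0.317 in XXF 2, 0.332 in XXF 6, 0.326 in XYF 3 and 0.340 in XYF 12 (the number is that of the animal), against 0.173 to 0.258 elsewhere. XYF 12 had the highest value of all 20 arrays for 41 of the 149 members, XYF 3 for 23 and XXF 2 for 17, whereas no array of a gonadal male was highest for more than 4. How often each array was highest over all features was not counted, so these counts show nothing particular to the members. The lowest correlation between arrays over all features was -0.55, for XXM 38 and XYF 12, the highest was 0.68, for XXM 9 and XYM 5, and 11 of 190 pairs were below -0.3. Every liver was labelled with the same dye, so the direction was kept. The library labelled XYF 30 had log2 ratios of -3.90 for Eif2s3y and -3.16 for Kdm5d, both Y-linked. The other XY libraries lay between 0.57 and 1.34 and between 0.14 and 1.37, and the XX libraries between -5.28 and -2.46 and between -3.03 and -1.22. The Y-linked genes of that library therefore go against its label, and the counts of calls are also given without it.

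The comparison of gonadal males with gonadal females asked whether gonadal type affects expression when it is separated from the sex chromosomes. Differences are given as gonadal males minus gonadal females. Gonadal males had lower ratios of Cxcr3, Cxcr6, Il7r and Tnfrsf18, receptors found on T or NK lymphocytes, of both chains of the interleukin-10 receptor, and of Ccl2, Ccl4, Ccl5, Ccl7 and Ccl24 among the CC chemokines. Other receptors that such lymphocytes can carry were not past the threshold, among them Cxcr4 (-0.07 ± 0.04), Il21r (-0.03 ± 0.04), Tnfrsf4 (-0.07 ± 0.05), Il2ra (0.04 ± 0.21) and Il12rb1 (0.27 ± 0.09). Ccr7, which guides lymphocytes and dendritic cells to lymph nodes, was the only member that was higher. With an adjusted p under 0.05, limma called 17 of 149 members (11.4%), against 808 of 21556 features (3.75%). Of these, 16 members were lower in gonadal males (10.7%, against 2.28% of all features) and 1 was higher (0.671%, against 1.47%). At an unadjusted p under 0.05 the shares were 27.5% of the members (41) and 17.8% of all features. Over all members 103 differences were negative and 46 positive, with a median of -0.04 on the log2 scale, against a median of 0.01 over all features. In 4 members, Cxcr3, Cxcr6, Il7r and Tnfrsf18, all 10 gonadal males were lower than all 10 gonadal females (2.68%, against 0.288% of all features in this direction); none was separated the other way (0.0557% of all features).

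**Figure D1:**
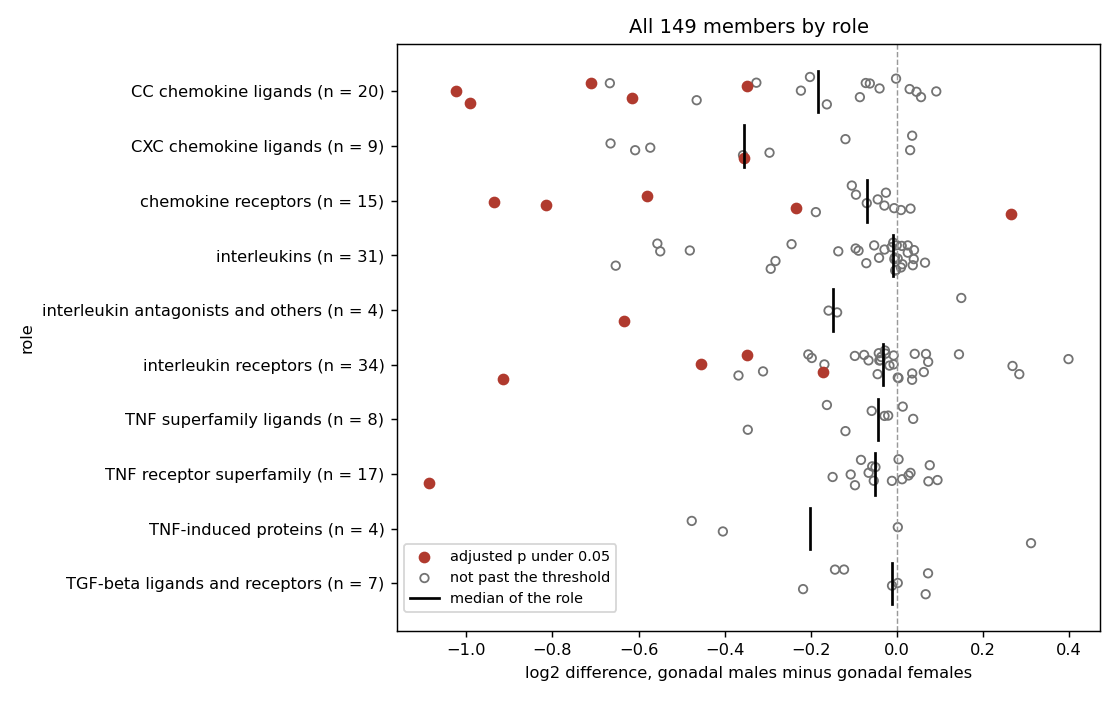
Each point is 1 of the 149 members, placed by its log2 difference between gonadal males and gonadal females (horizontal axis, 10 animals each) and its role (vertical axis); filled points had an adjusted p under 0.05 in limma and bars are medians of a role. The called members lie in the chemokine ligands and receptors, the interleukin receptors and antagonists and the TNF receptors, and none lies among the interleukins, the TNF ligands or the TGF-beta system.

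Most of these calls held without the arrays of widest spread. Without these 4 arrays, 18 members were called (with 3.85% of all features), all lower in gonadal males, and 13 of them were among the 17; Ccr6, Ccr7, Il18bp and Il27ra were lost. Without XYF 12 alone 18 members were called (3.86% of all features), and without the library labelled XYF 30 17 were (5.24%). The count was lowest at 10 without XXM 31 (1.86% of all features) and at 10 without XYM 19 (1.81%), and was 11 without XXM 18 (2.22%), so that the calls over all features fell as well. The call of 9 members was kept in all 20 fits that left out 1 array and under every other setting tried: Ccl4, Ccl7, Cxcr3, Cxcr5, Cxcr6, Il10ra, Il10rb, Il7r and Tnfrsf18.

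**Figure D2:**
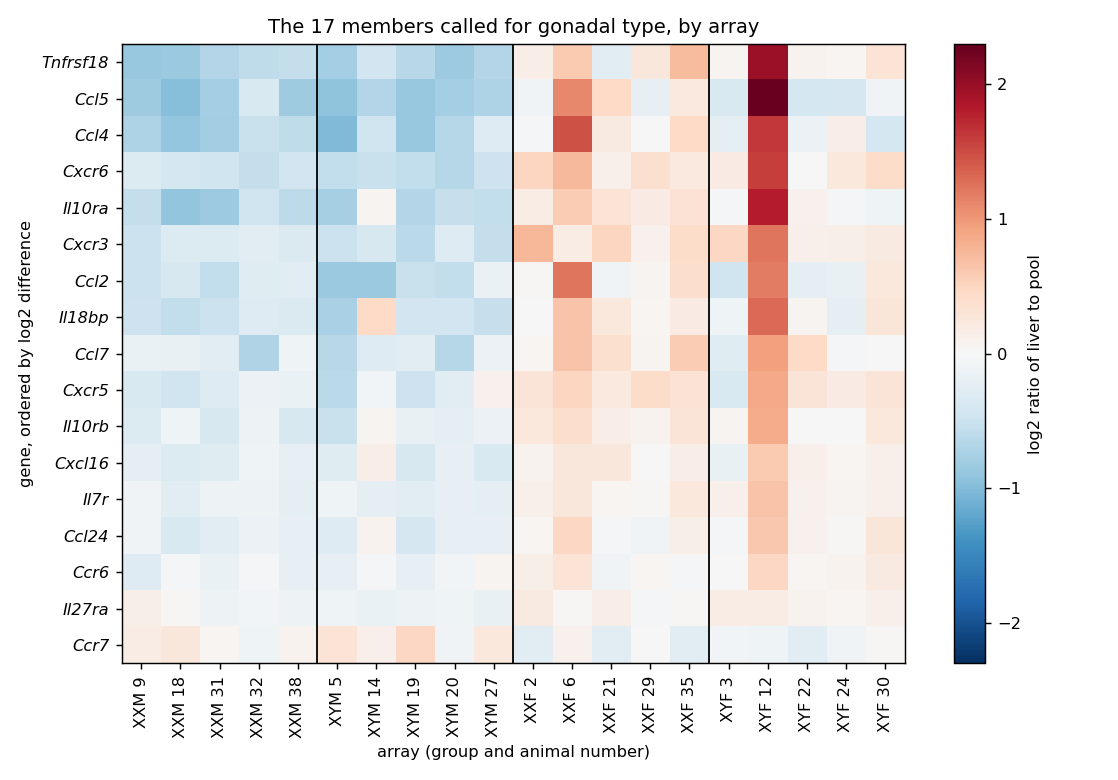
Colours give the log2 ratio of a liver to the pool for the 17 called members (rows, ordered by their difference) on each of the 20 arrays (columns, by group and animal number). The columns of XXM and XYM are mostly blue and those of XXF and XYF mostly red, XYF 12 is the deepest red, and Ccr7 in the last row runs the other way.

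Of the 20 CC chemokine ligands 5 were called lower in gonadal males (2.28% of all features were), 16 had negative estimates, and the median difference was -0.18. Ccl5 (RANTES), which draws T cells, NK cells and monocytes, had log2 ratios of -0.81, -0.98, -0.78, -0.34 and -0.81 in XXM and of -0.92, -0.67, -0.88, -0.77 and -0.71 in XYM. The values were -0.08, 1.11, 0.45, -0.19 and 0.23 in XXF and -0.34, 2.27, -0.41, -0.38 and -0.08 in XYF. XYF 12 and XXF 6 were the highest animals, and 9 of the 10 gonadal males lay below the lowest gonadal female. The difference was -1.02 ± 0.27 (SE, 10 against 10 animals), 2.03-fold, with an adjusted p of 0.0392. Without XYF 12 it was -0.77 with an adjusted p of 0.00242. The call was lost when any array was left out except XXM 32, XYM 14, XXF 29 or an array of XYF, with differences of -1.07 to -0.92 and adjusted p of 0.0524 to 0.0735.

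Ccl4, which with Ccl3 acts on monocytes and T cells, ran from -1.02 to -0.29 in gonadal males with a median of -0.68, and from -0.41 to 1.63 in gonadal females with a median of 0.08. All but 1 gonadal male lay below the lowest gonadal female, and the highest values belonged to XYF 12 and XXF 6. Its difference was -0.99 ± 0.22 (adjusted p 0.0196), and -0.81 without XYF 12 (adjusted p 0.00742). Ccl3 itself had a difference of -0.47 ± 0.15 with an adjusted p of 0.0981, and -0.34 (adjusted p 0.0460) without the 4 wide arrays.

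The monocyte attractants Ccl2 and Ccl7 were both lower in gonadal males. Ccl7 ranged from -0.70 to -0.09 (median -0.26) in gonadal males and from -0.28 to 0.95 (median 0.22) in gonadal females, and 9 gonadal females lay above the highest gonadal male. The difference was -0.62 ± 0.14 (adjusted p 0.0187). Ccl2 ranged from -0.86 to -0.15 (median -0.50) against -0.47 to 1.23 (median 0.04), with its highest value in XXF 6. Its difference was -0.71 ± 0.19, 1.64-fold (adjusted p 0.0408). That call was lost on leaving out any array except XYM 27, XXF 6, XXF 21, XXF 29 or an array of XYF, with differences of -0.75 to -0.68 and adjusted p of 0.0524 to 0.0815. Centring each array on its median also ended it (-0.72, adjusted p 0.0508). Ccr2, the receptor of both, had a difference of -0.10 ± 0.09 (adjusted p 0.633).

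Ccl24, an attractant of eosinophils, was lower in gonadal males by a smaller amount. It ranged from -0.38 to 0.08 (median -0.18) in gonadal males and from -0.09 to 0.63 (median 0.07) in gonadal females, so that the groups overlapped. The difference was -0.35 ± 0.09 (adjusted p 0.0295), and the adjusted p was 0.0603 without XXM 18, 0.0617 without XXM 31, 0.0650 without XYM 19 and 0.0526 without XYM 5. Of the 15 CC ligands that were not called, Ccl8 had the lowest estimate, -0.67 ± 0.23 (adjusted p 0.110), with XYF 12 at 2.07 and every other animal at 0.19 or less. Ccl25 stood at 0.09 ± 0.07, Ccl12 at 0.03 ± 0.03 and Ccl20, which binds Ccr6, at -0.06 ± 0.11. The 3 probes of Ccl21a, a ligand of Ccr7 with near-identical gene copies, had differences of 0.02, 0.01 and -0.14, none of them called.

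Of the called CC ligands, Ccl24 lies on chromosome 5, and Ccl2, Ccl7, Ccl5 and Ccl4 lie on chromosome 11. Among these only Ccl2 and Ccl7 are neighbours on chromosome 11, in the gene order of GRCm38.p6. Ccl2 and Ccl7 are followed there by Ccl11, Ccl12, Ccl8 and Ccl1, of which none was called, with differences of -0.09, 0.03, -0.67 and 0.06. Ccl5 is followed by Ccl9, Ccl6, Ccl3 and Ccl4, and the uncalled Ccl9 and Ccl6 had -0.22 and -0.33. Differences ranged from 0.06 to -0.71 in the first of these runs of genes and from -0.22 to -1.02 in the other. In all, 6 of the 20 members on chromosome 11 were called (3.75% of all features were), Ccl2, Ccl4, Ccl5, Ccl7, Ccr7 and Cxcl16.

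Among the CXC chemokine ligands 1 of 9 was called, lower in gonadal males (2.28% of all features were). Of the 9, 7 had negative estimates, and the median difference was -0.36. Cxcl16, a membrane-bound ligand that macrophages and sinusoidal endothelium present to cells with Cxcr6, ranged from -0.37 to 0.15 (median -0.24) in gonadal males and from -0.18 to 0.60 (median 0.12) in gonadal females. The highest gonadal male was XYM 14, and 8 of the 10 gonadal males lay below the lowest gonadal female. The difference was -0.36 ± 0.08 (adjusted p 0.0217), and the adjusted p was 0.0505 without XYM 19. Cxcl1 and Cxcl13, which attract neutrophils and B cells, had the widest spread within groups of all members. Cxcl1 was at 1.88 in XXM 18 and between -1.52 and -0.72 in the other gonadal males, and from -1.01 to 1.68 in gonadal females. Its difference of -0.67 ± 0.37 (adjusted p 0.376) was smaller than this spread could resolve. Cxcl2 (-0.36 ± 0.11, adjusted p 0.0700) and Cxcl14 (-0.57 ± 0.19, adjusted p 0.108) were not called. Cxcl12, the ligand of Cxcr4, stood at -0.12 ± 0.09, and Cxcl11, a ligand of Cxcr3, at 0.04 ± 0.05, neither past the threshold. Cxcl9 and Cxcl10, the other ligands of Cxcr3 and no members by the rule, were called lower in gonadal males as well, with adjusted p of 0.000922 and 0.0188. The difference of Cxcl9 was -2.10 ± 0.30, and Cxcl10 ran from -0.95 to 0.04 in gonadal males and from -0.44 to 1.43 in gonadal females.

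Of the 15 chemokine receptors, 4 were called lower in gonadal males (2.28% of all features were) and 1 was called higher (1.47%). Cxcr3, carried by activated T cells and NK cells, had log2 ratios of -0.49, -0.32, -0.31, -0.26 and -0.33 in XXM and of -0.49, -0.37, -0.62, -0.30 and -0.55 in XYM. It was at 0.77, 0.17, 0.49, 0.11 and 0.42 in XXF and at 0.47, 1.23, 0.12, 0.13 and 0.20 in XYF. Every gonadal male was below the pool and every gonadal female above it, with no overlap. The difference was -0.82 ± 0.12, 1.76-fold (adjusted p 0.000892), and without the 4 wide arrays it was -0.65 (adjusted p 6.19e-05).

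Cxcr6, the receptor of Cxcl16 and a mark of T, NKT and NK cells that stay in the liver, gave the same picture. Its values were -0.31, -0.40, -0.45, -0.56 and -0.44 in XXM and -0.57, -0.52, -0.57, -0.65 and -0.48 in XYM. They were 0.49, 0.75, 0.12, 0.37 and 0.23 in XXF and 0.19, 1.60, -0.01, 0.25 and 0.43 in XYF. The gonadal males lay close together and below all gonadal females, among which XYF 12 was highest. The difference was -0.94 ± 0.14, 1.91-fold (adjusted p 0.00151), and -0.80 without XYF 12 (adjusted p 4.72e-06).

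Cxcr5, which leads B cells and follicular T cells to Cxcl13, ranged from -0.62 to 0.10 (median -0.27) in gonadal males and from -0.35 to 0.87 (median 0.30) in gonadal females. The lowest gonadal female, XYF 3, lay among the gonadal males, and the other 9 were above all of them. The difference was -0.58 ± 0.12 (adjusted p 0.00935). Ccr6, a receptor of B cells and T helper cells, had a difference of -0.23 ± 0.06 (adjusted p 0.0454) with ranges of -0.29 to 0.07 and -0.07 to 0.47. Its call held in the leave-out fits only without XYM 27, XXF 21, XXF 29, XXF 35, XYF 3 or XYF 22; in the other 14 the difference was -0.25 to -0.20 with an adjusted p of 0.0514 to 0.0925.

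Ccr7 was higher in gonadal males, with a range of -0.10 to 0.47 (median 0.14) against -0.26 to 0.09 (median -0.08). The groups overlapped, and XYF 12 at -0.09 was close to the median of the gonadal females. The difference was 0.27 ± 0.07, 1.20-fold (adjusted p 0.0380). The call was lost on leaving out 12 of the 20 arrays, all except XXM 32, XYM 14, XYM 20, XXF 6, XXF 29, XYF 3, XYF 12 and the library labelled XYF 30, with differences of 0.23 to 0.27 and adjusted p of 0.0521 to 0.0777. It was also lost with arrays centred on their median (0.26, adjusted p 0.0560) and without the 4 wide arrays (0.29, adjusted p 0.0629). Of the uncalled receptors, Cxcr4 stood at -0.07 ± 0.04, Cxcr2, the neutrophil receptor of Cxcl1, at -0.19 ± 0.08 (adjusted p 0.214), Ccr1 at -0.03 ± 0.04 and Ccr2 at the value given with its ligands.

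**Figure D3:**
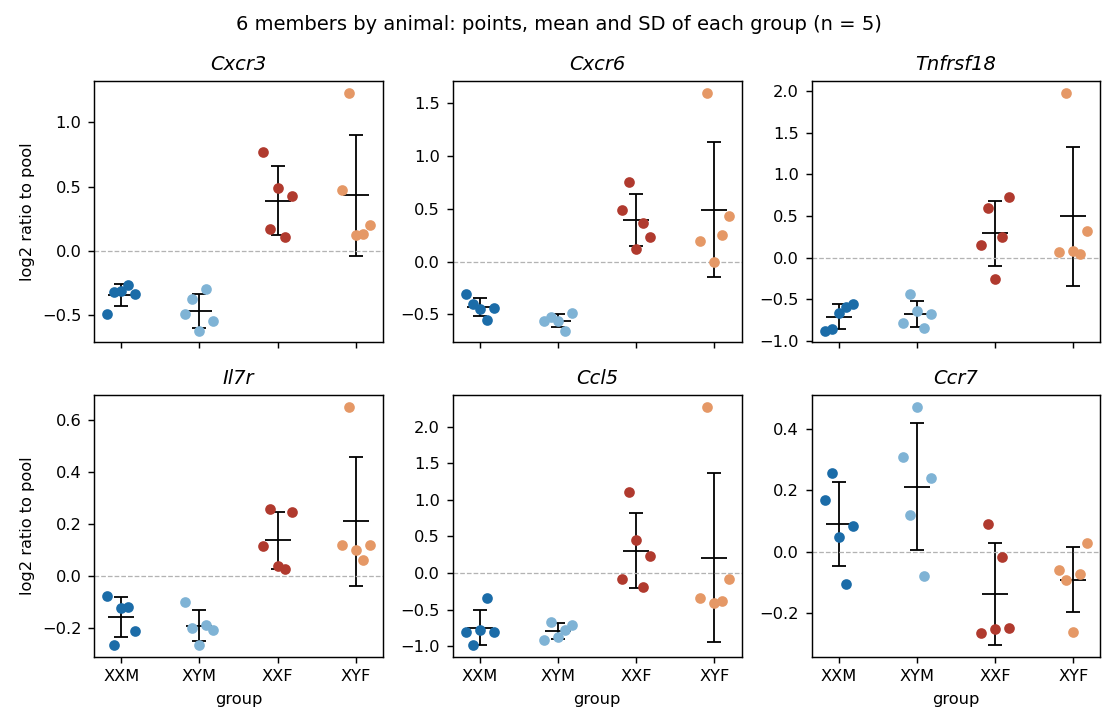
Points are single animals and bars the mean and SD of each group of 5; the vertical axis is the log2 ratio of liver to pool, on a scale of its own for each gene. In Cxcr3, Cxcr6, Tnfrsf18 and Il7r all 10 gonadal males lie below all 10 gonadal females, in Ccl5 1 gonadal male reaches the range of the gonadal females, and in Ccr7 the groups overlap with gonadal males higher.

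No interleukin gene was called by limma (0 of 31), and the median difference was -0.01. At an unadjusted p under 0.05 there were 6, a share near the 17.8% of all features, and all of them were lower in gonadal males. Il7, which keeps T cells alive, came nearest, with -0.61 to 0.00 (median -0.34) in gonadal males and -0.30 to 1.26 (median 0.06) in gonadal females. Its difference was -0.55 ± 0.16 (adjusted p 0.0588), and it passed the threshold without XXF 21, XXF 35, XYF 3 or the library labelled XYF 30 (in the last case -0.59, adjusted p 0.0425), and with scaled or weighted arrays. Without the 4 wide arrays it was -0.33 (adjusted p 0.0765). Il15, the survival factor of NK and memory T cells, stood at -0.56 ± 0.16 (adjusted p 0.0662), with XXF 6 at 1.38 and XXF 2 at 0.84. Without the 4 wide arrays, which include both, it stood at -0.26 (adjusted p 0.186). Il15 passed the threshold without XXF 29 (adjusted p 0.0384) and with scaled or weighted arrays. Il18 had -0.29 ± 0.10 (adjusted p 0.110, and 0.0454 without XXF 21). Il1b, the inflammatory product of macrophages, had -0.65 ± 0.25 (adjusted p 0.167), with the highest value, 1.16, in the library labelled XYF 30. Il1a stood at 0.03 ± 0.06. Il1f5, whose product blocks the interleukin-36 receptor, had -0.28 ± 0.12 (adjusted p 0.234) and -0.49 (adjusted p 0.0249) without the 4 wide arrays. Il6, Il10, Il4 and Il13 stood at -0.24 ± 0.18, 0.03 ± 0.07, -0.09 ± 0.06 and -0.05 ± 0.15.

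Of the 34 interleukin receptor chains 4 were called lower in gonadal males (2.28% of all features were). Il2rb, an interleukin receptor chain left out by the rule, was called lower by limma as well (-1.70 ± 0.16, adjusted p 1.66e-05). Il7r, the receptor chain for Il7 on T cells, had log2 ratios of -0.08, -0.26, -0.12, -0.12 and -0.21 in XXM and -0.10, -0.20, -0.26, -0.19 and -0.21 in XYM. It was at 0.12, 0.26, 0.04, 0.03 and 0.25 in XXF and at 0.12, 0.65, 0.10, 0.06 and 0.12 in XYF. The groups did not overlap, although the difference of -0.35 ± 0.06 (1.27-fold, adjusted p 0.0054) was smaller than those of Cxcr3 and Cxcr6.

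Both chains of the receptor for interleukin-10, a cytokine that restrains macrophages, were lower in gonadal males. Il10ra was at -0.55, -0.90, -0.84, -0.46 and -0.60 in XXM, and at -0.76, 0.07, -0.66, -0.53 and -0.56 in XYM, where XYM 14 held the high value. In gonadal females it was at 0.17, 0.59, 0.32, 0.19 and 0.33 (XXF) and at -0.04, 1.81, 0.10, -0.02 and -0.09 (XYF). The other 9 gonadal males lay below the lowest gonadal female. The difference was -0.91 ± 0.19 (adjusted p 0.0120), -0.98 without XYM 14 (adjusted p 0.00839) and -0.73 without XYF 12 (adjusted p 0.00020). Il10rb, also a chain of the receptors for interleukin-22 and interferon lambda, had a difference of -0.46 ± 0.10 (adjusted p 0.0141), again with XYM 14 highest among the gonadal males at 0.07. The ligand Il10 was not past the threshold, as given with the interleukins.

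Il27ra, the receptor chain for interleukin-27, had the smallest of the called differences, -0.17 ± 0.04 (1.13-fold, adjusted p 0.0248). Its ranges of -0.17 to 0.14 in gonadal males and -0.05 to 0.21 in gonadal females overlapped. The adjusted p was 0.0571 without XXM 31 and 0.104 without the 4 wide arrays. Among the uncalled chains, Il18r1 stood at -0.37 ± 0.14 (adjusted p 0.157) and Il4ra at -0.21 ± 0.07 (adjusted p 0.121). Il18r1 was past the threshold without XYF 12 (-0.23, adjusted p 0.0444). Of the 34 chains 12 had positive estimates, and those with an unadjusted p under 0.05 were Il1r1, the signalling receptor of interleukin-1, at 0.40 ± 0.18 (adjusted p 0.263), Il1rap, its partner chain, at 0.28 ± 0.12 (adjusted p 0.198), and Il12rb1, a chain of the interleukin-12 receptor, at 0.27 ± 0.09 (adjusted p 0.104). Il12rb1 was past the threshold without XYM 5 (adjusted p 0.0451) and with array weights. The chains of the interleukin-6 receptor, Il6ra and Il6st, stood at 0.04 ± 0.03 and -0.04 ± 0.05, and Il6ra had the narrowest range of all members over the 20 arrays, 0.202. Il15ra stood at 0.07 ± 0.16 and the decoy receptor Il1r2 at -0.10 ± 0.08.

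Il18bp, a secreted protein that binds and blocks interleukin-18, was the called member among the 4 antagonists, binding proteins and induced enzymes. It ran from -0.75 to 0.45 (median -0.46) in gonadal males and from -0.23 to 1.31 (median 0.12) in gonadal females. XYM 14 held the 0.45, and the other 9 gonadal males lay below the lowest gonadal female. The difference was -0.63 ± 0.17 (adjusted p 0.0448), and -0.73 without XYM 14 (adjusted p 0.0125). Leaving out any array other than XYM 14, XXF 29, XYF 3, XYF 12 or XYF 24 ended the call, with differences of -0.66 to -0.58 and adjusted p of 0.0501 to 0.0848. Il1rn, the interleukin-1 receptor antagonist, stood at -0.16 ± 0.08 (adjusted p 0.296).

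In the TNF receptor superfamily 1 of 17 genes was called, lower in gonadal males (2.28% of all features were), and it had the largest difference of all members. Tnfrsf18 (GITR), a costimulatory receptor of regulatory T cells, activated T cells and NK cells, was at -0.88, -0.86, -0.67, -0.59 and -0.55 in XXM and at -0.78, -0.43, -0.65, -0.84 and -0.68 in XYM. It was at 0.15, 0.59, -0.26, 0.25 and 0.73 in XXF and at 0.07, 1.98, 0.08, 0.04 and 0.32 in XYF. The groups did not overlap, and XYF 12 was again far above the rest. The difference was -1.09 ± 0.20, 2.12-fold (adjusted p 0.00515), and -0.90 without XYF 12 (adjusted p 6.1e-05). Tnf stood at -0.35 ± 0.14 (adjusted p 0.175), with XYF 12 at 1.29, and its receptors Tnfrsf1a and Tnfrsf1b at -0.06 ± 0.06 and -0.05 ± 0.06. Tnfrsf14 had -0.10 ± 0.03 (adjusted p 0.113) and Tnfrsf11b, a soluble decoy for the ligands Tnfsf11 and Tnfsf10, 0.08 ± 0.05. None of the 8 TNF ligands and 4 TNF-induced proteins was called, and 1 of the former and 2 of the latter had an unadjusted p under 0.05 (17.8% of all features had). Tnfaip8 stood at -0.48 ± 0.19 (adjusted p 0.171), Tnfaip6, an anti-inflammatory matrix-binding protein, at 0.31 ± 0.19 (adjusted p 0.421), and Tnfsf8 at -0.03 ± 0.18. Tnfaip8 was past the threshold without the 4 wide arrays (-0.40, adjusted p 0.0497).

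None of the 7 genes of the TGF-beta system was called, and 1 had an unadjusted p under 0.05 (Tgfb1i1, -0.12 ± 0.05, adjusted p 0.244), against 17.8% of all features. The ligands Tgfb1, Tgfb2 and Tgfb3 stood at 0.00 ± 0.04, 0.07 ± 0.07 and -0.14 ± 0.10, and the receptors Tgfbr1 and Tgfbr3 at -0.01 ± 0.04 and 0.07 ± 0.12. Tgfbi, an extracellular protein induced by TGF-beta, stood at -0.22 ± 0.12 (adjusted p 0.391).

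The 4 genes whose groups did not overlap, placed on 4 chromosomes, were also looked at in sequence. They were picked for that separation, and whether they vary together between animals was not tested. Shown are the 250 bases before the RefSeq transcription start (GRCm38.p6), 5′ to 3′ on the strand of the gene. They are Cxcr3 at chrX:101734148-101734397 on the minus strand, Cxcr6 at chr9:123806227-123806476 on the plus strand, Il7r at chr15:9529877-9530126 on the minus strand and Tnfrsf18 at chr4:156026072-156026321 on the plus strand. Capitals mark matches to TTCNNNGAA, the letters of the GAS site of STAT factors.
Cxcr3: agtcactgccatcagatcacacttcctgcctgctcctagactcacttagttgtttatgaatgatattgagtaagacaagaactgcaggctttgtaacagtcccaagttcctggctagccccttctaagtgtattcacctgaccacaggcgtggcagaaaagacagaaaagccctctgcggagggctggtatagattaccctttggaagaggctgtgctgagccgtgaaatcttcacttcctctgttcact
Cxcr6: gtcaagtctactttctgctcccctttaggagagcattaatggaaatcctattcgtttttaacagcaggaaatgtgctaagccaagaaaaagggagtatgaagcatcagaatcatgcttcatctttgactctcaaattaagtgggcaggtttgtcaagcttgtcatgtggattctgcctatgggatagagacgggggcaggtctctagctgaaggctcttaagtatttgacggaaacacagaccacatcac
Il7r: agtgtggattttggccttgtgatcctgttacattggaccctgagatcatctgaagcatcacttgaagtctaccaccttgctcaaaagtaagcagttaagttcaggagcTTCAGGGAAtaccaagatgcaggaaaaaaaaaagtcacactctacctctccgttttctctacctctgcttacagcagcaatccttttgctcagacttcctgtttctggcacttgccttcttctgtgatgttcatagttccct
Tnfrsf18: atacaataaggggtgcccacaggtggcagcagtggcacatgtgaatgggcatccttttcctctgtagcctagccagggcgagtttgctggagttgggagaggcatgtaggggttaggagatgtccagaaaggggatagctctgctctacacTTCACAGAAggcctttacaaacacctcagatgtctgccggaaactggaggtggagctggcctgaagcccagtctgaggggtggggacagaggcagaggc
Both strands were searched for TTCNNNGAA, whose pattern reads the same on either strand, for the ISRE of interferon-regulated genes and for the kB site of NF-kB. TTCNNNGAA was found at bases -142 to -134 of Il7r and -99 to -91 of Tnfrsf18, counted from the transcription start, and not in the windows of Cxcr3 and Cxcr6. Neither of the other motifs was found in any of the 4 windows, so no matches overlapped. Of the 149 members 113 had such a window, and TTCNNNGAA was in 13.3% of them, the ISRE in 7.08% and the kB site in 10.6%. Over all 32851 windows of this length the shares were 7.02%, 2.98% and 1.41%, and by gene, as for the members, 8.13%, 3.46% and 1.65%. A match is a likeness of letters and no evidence of binding.

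Some markers of leukocytes were also lower in gonadal males, and the values of the lists stand here beside the results. Of all features 2.28% were called lower. Of 17 measured markers of T and NK lymphocytes, 6 were called lower in gonadal males (Cd2, Cd3d, Cd3g, Cd8a, Klrb1c and Zap70) and 0 higher. The mean over the list ran from -0.25 to -0.04 in gonadal males and from -0.02 to 0.49 in gonadal females, without overlap. Cd3g, a chain of the T cell receptor complex, differed by -1.11 ± 0.14 (adjusted p 0.000204), whereas 6 of the 17 had positive estimates, among them Cd4 at 0.10 ± 0.06 (adjusted p 0.482), and the median of the list was -0.10. Of 18 markers of Kupffer cells and macrophages 7 were called lower, among them Clec4f (-0.82 ± 0.17, adjusted p 0.0105) and Csf1r (-0.97 ± 0.21, adjusted p 0.0158). Of the 18, 17 had negative estimates, and the median of the list was -0.72. Cd163 went the other way, at 0.32 ± 0.29 (adjusted p 0.656). The mean over this list ran from -0.82 to 0.33 in gonadal males and from -0.27 to 1.53 in gonadal females. XYM 14 held the 0.33 and the other gonadal males lay between -0.82 and -0.42. That animal was also the highest gonadal male for 6 of the 16 members called lower: Ccl24, Cxcl16, Il10ra, Il10rb, Il18bp and Tnfrsf18.

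The B cell and plasma cell list had 2 of 6 markers called lower (Cd22 and Cd79b), with means of -0.47 to 0.03 in gonadal males and -0.11 to 0.43 in gonadal females. Among the dendritic cell markers 1 of 3 was called lower, among those of stellate cells and fibroblasts 2 of 9 and among those of cholangiocytes 1 of 4 (2.28% of all features were). No marker was called among 9 of neutrophils, 9 of sinusoidal endothelium and 10 of hepatocytes. The neutrophil mean ran from -1.49 to -1.16 in gonadal males and from -1.20 to 2.29 in gonadal females. XYF 12 held the 2.29, and the other gonadal females lay between -1.20 and -0.29. Of the 9 neutrophil markers 8 had negative estimates, with a median of -0.55. XYF 12 was the highest array on the macrophage (1.53), lymphocyte (0.49), B cell (0.43), neutrophil, dendritic cell (0.90), sinusoidal endothelium (0.29) and hepatocyte (0.20) lists. It was not the highest on the lists of stellate cells and fibroblasts and of cholangiocytes. XYF 12 was also the highest gonadal female for 14 of the 16 members called lower. As with the count for XYM 14, the share over all features was not counted. The part of these cells in the differences of the members was not tested.

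**Figure D4:**
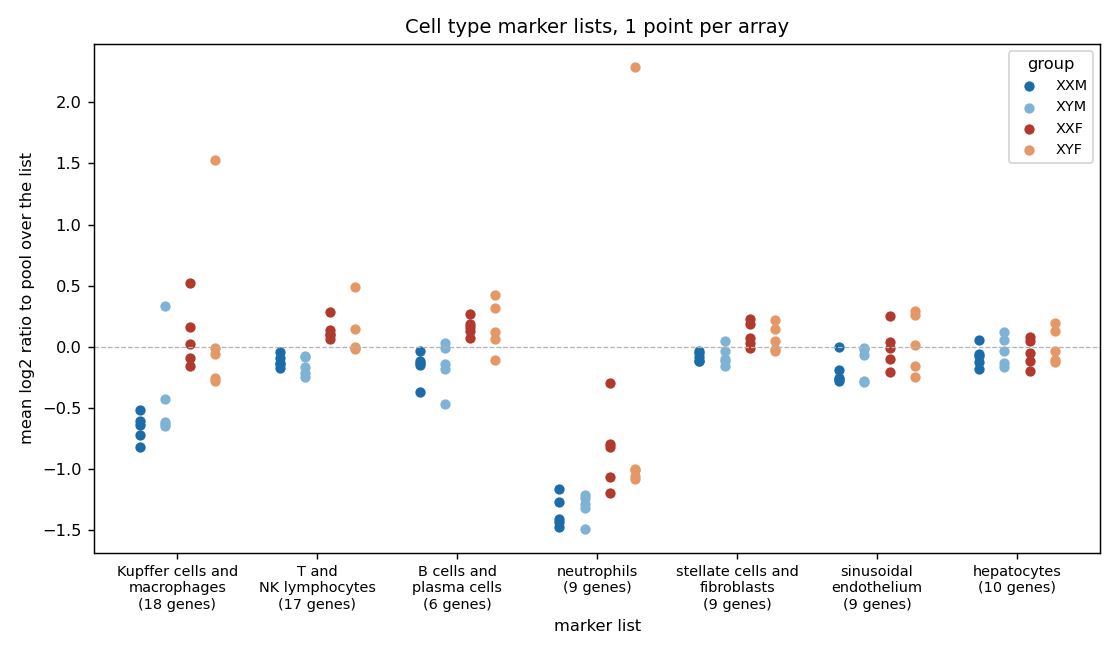
Each point is 1 array, placed by the mean log2 ratio to the pool over the measured genes of a marker list (vertical axis) for 7 cell types (horizontal axis), and coloured by group. The T and NK lymphocyte means of gonadal males all lie below those of gonadal females, and XYM 14 stands apart from the other gonadal males on the macrophage list. XYF 12 is highest on every list shown except that of stellate cells and fibroblasts.

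Genes that work with the members but were outside the naming rule were read from lists of signalling components. The share of all features called lower in gonadal males was 2.28%. Of 30 genes of NF-kB and receptor adaptors 2 were called lower in gonadal males, Ripk3 (-0.71 ± 0.18, adjusted p 0.0337), a kinase of necroptosis, and Traf1 (-0.66 ± 0.15, adjusted p 0.0189), an adaptor of TNF receptors. Of 22 genes of the JAK-STAT pathway 3 were called lower: Stat4 (-0.60 ± 0.14, adjusted p 0.0201), which transmits interleukin-12, Socs1 (-0.55 ± 0.14, adjusted p 0.0360), a feedback inhibitor, and Ptpn6 (-0.28 ± 0.07, adjusted p 0.0360), a phosphatase of blood cells. None of 21 genes of TGF-beta signalling was called. Of 13 further genes of the chemokine system 1 was, Xcl1 (-0.35 ± 0.09, adjusted p 0.0284), a product of NK and CD8 T cells. No gene of these 4 lists was called higher, and their medians were -0.04, -0.04, -0.01 and -0.14.

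The gonadal difference was then taken within each sex chromosome complement. The means come from 5 against 5 separate arrays each time, but the spread behind the p-values is shared over all 20 arrays. Within XX livers limma called 1 member (0.671%, against 0.645% of all features), Cxcr3, at -0.73 with an adjusted p of 0.0491. Within XY livers it called 2 (1.34%, against 0.158%), Cxcr3 at -0.90 (adjusted p 0.0308) and Cxcr6 at -1.05 (adjusted p 0.0430). Cxcr6 had -0.82 (adjusted p 0.0758) in XX livers. With only the 2 groups compared in the fit, limma called 10 members within XX (1.79% of all features) and 0 within XY (0.0186%). The calls of the fit on all arrays were close to the threshold. Cxcr3 in XX livers was called in 3 of the 20 fits that left out an array, those without XXF 29, XYF 12 or the library labelled XYF 30, and its adjusted p was 0.0526 to 0.151 in the other 17. Cxcr6 in XY livers was called in 3 too, those without XXF 6, XYF 12 or XYF 22, with 0.0506 to 0.131 in the others. Cxcr3 in XY livers lost its call without XYF 3, XYM 5, XYM 14, XYM 19 or XYM 27 (adjusted p 0.0649 to 0.127). Without the library labelled XYF 30, Cxcr6 had -1.07 in XY livers (adjusted p 0.101). Without XYF 12 the counts were 11 members within XX, where 2.14% of all features were called, and 4 within XY (0.237% of all features). Without the library labelled XYF 30 they were 1 within XX (0.784%) and 1 within XY (0.107%).

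The 17 members called over both complements were selected on the mean of the XX and XY differences, which largely fixes an equal sign in both: all 17 had it, and so did all 808 features called this way. Ccl4 had -1.12 and -0.87, Il7r -0.30 and -0.40, Il10ra -0.99 and -0.84, Cxcr5 -0.64 and -0.52, and Ccr7 0.23 and 0.30. Over all 149 members 87 had the same sign in both (58.4%), and 61.0% of all features did. Pearson's r between the 2 sets of differences was 0.81 over the members (Spearman's rho 0.61), and 0.65 over all features (rho 0.46). These are correlations across genes, which are no independent replicates. The pool common to all arrays cancels within each difference.

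**Figure D5:**
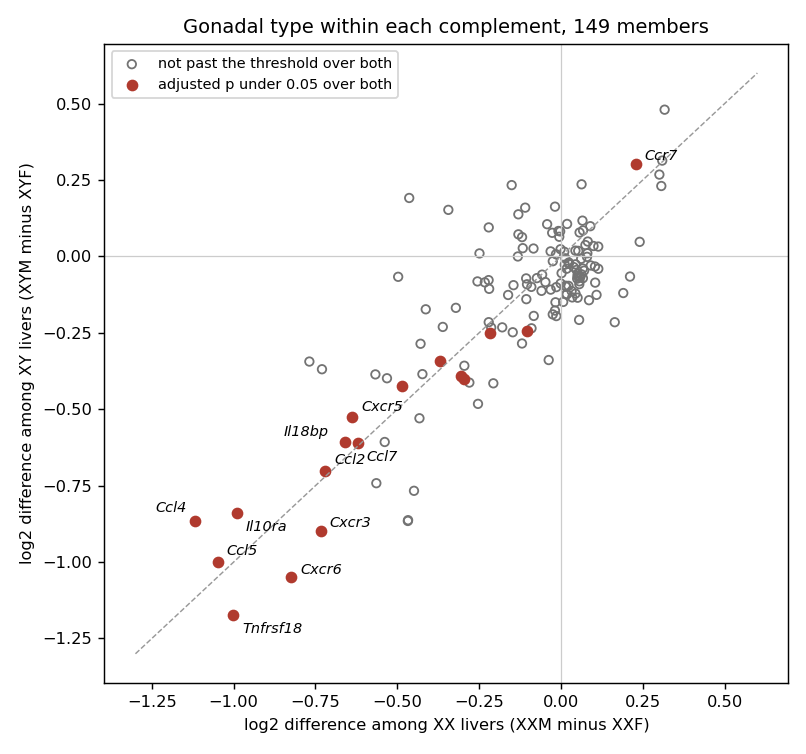
Each point is 1 of the 149 members, with the log2 difference between gonadal males and gonadal females among XX livers on the horizontal axis and among XY livers on the vertical axis; the dashed line marks equal values. The filled points, called over both complements, all lie in the quadrants of equal sign, and most open points lie near the origin.

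Whether the effect of gonads depended on the sex chromosomes was tested as an interaction, the difference XXM minus XYM less the difference XXF minus XYF. No member was called by limma (0 of 149, against 0% of all features), and 3 members and 556 features (2.58%) had an unadjusted p under 0.05. The 3 members were Ccr9, a receptor of gut-homing T cells (0.38 ± 0.15), Il25 (-0.65 ± 0.29) and Il1f6 (-0.20 ± 0.09), each with an adjusted p of 1. Ccr9 had group means of 0.10 in XXM, -0.18 in XYM, -0.07 in XXF and 0.04 in XYF. The value of Il25 went with XXM 32, which stood at -1.16, whereas the other 19 animals lay between -0.54 and 0.38. For the called members the interaction was 0.16 ± 0.24 in Cxcr3, 0.23 ± 0.29 in Cxcr6, 0.17 ± 0.39 in Tnfrsf18 and -0.05 ± 0.54 in Ccl5, with the widest error in Ccl5. The next smallest p among positive values belonged to Cxcr2 (0.30 ± 0.16), Tnfrsf25 (0.17 ± 0.09), Ccr8 (0.11 ± 0.06), Il18rap (0.26 ± 0.15), Il27ra (0.14 ± 0.08), Ccl21a (0.15 ± 0.09) and Il12b (0.23 ± 0.14). Among negative values they belonged to Il10 (-0.27 ± 0.14), Il9r (-0.18 ± 0.10), Il1f5 (-0.43 ± 0.25) and Tnfrsf10b (-0.15 ± 0.09). None of these had an unadjusted p under 0.05.

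The comparison of XX with XY livers asked for effects of the sex chromosomes themselves, and differences are XX minus XY. No member was called by limma (0 of 149, against 0.0278% of all features), with 3 members and 1091 features (5.06%) at an unadjusted p under 0.05. These 3 were Tnfrsf4 (OX40, a costimulatory receptor of activated T cells; -0.11 ± 0.05), Il21r (-0.09 ± 0.04) and Ccl12 (-0.07 ± 0.03), each with an adjusted p of 0.914. Over the 149 members the median was -0.02, against -0.01 over all features, and 89 differences were negative. Cxcr3 is on the X chromosome and had 0.04 ± 0.12. Il13ra1, Il13ra2 and Il1rapl2, also X-linked, had 0.05, 0.03 and -0.08, none called. Il1rapl1, on the X chromosome by the gene order, was not called either. Cxcr6, Il7r, Tnfrsf18 and Ccl5 stood at 0.01 ± 0.14, -0.02 ± 0.06, -0.12 ± 0.20 and 0.07 ± 0.27. Il6st, the shared signalling chain gp130, stood at -0.10 ± 0.05 and Il9 at -0.09 ± 0.05. The positive estimates with the smallest p included Ccl20 at 0.21 ± 0.11, Il2ra, a chain of the interleukin-2 receptor, at 0.34 ± 0.21, Cxcl12 at 0.15 ± 0.09, Il23a at 0.07 ± 0.04 and Il17rb at 0.25 ± 0.17.

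Within a gonadal type the sex chromosome comparison gave no call either. Limma called 0 members among gonadal males (0.00464% of all features) and 0 among gonadal females (0% of all features), with 3 and 6 members at an unadjusted p under 0.05 (444 and 1311 features, 2.06% and 6.08%). The count stayed at 0 for each of these comparisons and for the interaction in all 20 fits without 1 array, including the fit without the library labelled XYF 30.

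The members also differed in how much they varied between animals of a group. The median within-group SD was 0.178 over the members and 0.154 over all features, and 39 of 149 members (26.2%) lay above the 90th percentile of all features, 0.334. Over the 20 arrays 19 members had a range of at least 2 on the log2 scale, led by Cxcl13 (4.07), Cxcl1 (3.40) and Ccl5 (3.24), and 88 had a range under 1. Cxcl13, made by stromal and macrophage-like cells, was at 2.40 in XYF 12 and at 0.41 or less in all other animals. Its difference between gonadal types was -0.61 ± 0.35 (adjusted p 0.393).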

How the data were processed

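Liver RNA of 20 mice was compared with a common pool on 2-colour arrays, and the authors deposited log10 ratios. Base and direction were inferred: in base 10, Eif2s3y and Kdm5d were 1.74 ± 0.33 and 1.68 ± 0.49 times the pool (SD, n = 9 XY arrays, without the library labelled XYF 30), and in base 2 1.18 and 1.16 times. Another base would rescale every difference and leave p-values as they are. Liver was in Cy5 and pool in Cy3, per the labels. The scanner, background correction and dye normalization are not given in the sources used here; signal over background is unknown, and the number of arrays limits the precision. Values end at a size of 2 (29 values), and 2 were missing.

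Ratios were converted to log2 and probes of a gene averaged; 12662 probes were named through an Entrez ID, 4 through an accession and 999 by the platform's symbol, while 48 named several genes and 9861 were not listed. limma 3.58.1 (R 4.3.3) fitted 4 group means with a shared spread. Its eBayes p-values received the Benjamini-Hochberg adjustment across 21556 features (threshold 0.05), and ± is its SE. The fit was tested on simulated data.

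Named are members past the threshold in any contrast, for gonadal type, sex chromosomes and interaction the 8 of smallest p per direction, the smallest p of each role, and fixed ligand and receptor pairs. Ccl1, Ccl6, Ccl8, Ccl9, Ccl11, Cxcl2, Cxcl13, Cxcl14, Il13ra1, Il13ra2, Il1rapl1 and Il1rapl2 fall outside that rule and were picked with their values in view. Members and lists were chosen with earlier results of these data known. RefSeq tables (GRCm38.p6) gave names, chromosomes, gene order and promoter windows. Alternatives left out each array or the 4 wide arrays, centred, scaled or weighted arrays, tested probes singly, used named features only, platform symbols or robust eBayes, set values at the limit to missing, or fitted only the groups compared. Replicates are single animals by their number in the labels.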

Additional observations from a re-analysis of the deposited data

Results flagged for a closer look

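In 9 of the 68 groups of 5 animals tested for the 17 called members, 1 animal lay apart from the other 4 by more than Dixon's critical value of 0.71; over all 149 members this held in 53 of 596 groups. Chance alone flags about 1 group in 20. XYF 12 was the high animal of its group for Ccl4 (1.63, others -0.41 to 0.15), Ccl5 (2.27, others -0.41 to -0.08), Cxcr6 (1.60, others -0.01 to 0.43), Il10ra (1.81, others -0.09 to 0.10), Il7r (0.65, others 0.06 to 0.12) and Tnfrsf18 (1.98, others 0.04 to 0.32). XYM 14 was the high animal of its group for Il10ra (0.067, others -0.76 to -0.53) and Il18bp (0.45, others -0.75 to -0.44). XXM 32 was the low animal of its group for Ccl7 (-0.70, others -0.25 to -0.09).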

How the results depend on the processing

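The 17 calls for gonadal type became 10 to 18 in the leave-out fits of 1 array, and 13 with arrays centred on their median (3.27% of all features called) to 24 with array weights (7.78%, against 3.75%); none of the 17 changed sign. Among 62 named uncalled members 20 changed sign under some setting. Within XX livers the count of 1 became 0 with each probe tested alone, 0 with centred arrays, 7 with arrays scaled to a common spread (1.63% of all features, against 0.645%), 11 with array weights (2.66%), 0 with robust eBayes, 8 without the 4 wide arrays (1.27%), 10 with only these 2 groups in the fit (1.79%), and 0 to 11 without 1 array. Within XY livers the count of 2 became 1 with centred arrays, 0 with only these 2 groups in the fit (0.0186%, against 0.158%), and 0 to 4 without 1 array. Counts for the sex chromosomes and the interaction stayed at 0 under every setting. No paired analysis was possible because the animal numbers differ in all groups. The values are ratios without signal over background, so which members were near background is unknown; slide, scan and litter are not given in the sources used here.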
